A study of Mus musculus with 4 samples.

Results

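Genes that act in the heart fields and in the differentiation of heart muscle were followed across 4 arrays of whole mouse embryos. They are the homeobox gene *Nkx2-5*, the GATA factors *Gata4*, *Gata5* and *Gata6*, the Hand factors *Hand1* and *Hand2*, the MADS factor *Mef2c*, the T-box genes *Tbx1* and *Tbx20*, and the muscle methyltransferase gene *Smyd1*. The members were chosen by name for their known roles in the heart, as probes that are not controls and whose gene name on the array equals one of these symbols, which gave 10 of 37008 genes, at 22 probes.

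Heart progenitors arise in a first and a second heart field of the mesoderm, and the primitive heart tube forms, beats and loops while blood circulation begins. NKX2-5, GATA and T-box proteins bind DNA side by side at heart genes and switch on each other's genes, MEF2C and the HAND proteins act with them in the growing chambers, and SMYD1 is a chromatin enzyme of striated muscle. Several of these genes are also active outside the heart, as *Gata4* and *Gata6* are in extraembryonic endoderm, *Hand1* in extraembryonic mesoderm and *Tbx1* in the pharyngeal arches.

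The study asked how loss of the kinase DYRK2 changes gene expression early in organ formation. Whole C57BL/6 embryos (so labelled, with C57BL/6J named in the paper) of wild type (WT) and of the DYRK2 knockout genotype (DYRK2-KO) were taken. The embryonic days are named E8.5 or E10.5. Cy3-labelled cRNA of the embryos' total RNA was hybridized to Agilent mouse expression arrays of 1 colour. The knockout mice carried small deletions in *Dyrk2* made with a CRISPR/Cas9 nickase, of which several were bred, and neither the allele behind an array nor the number of embryos is given in the text. Each of the 4 groups (WT and DYRK2-KO at E8.5, WT and DYRK2-KO at E10.5) had 1 array, all on 1 slide, so that no difference between a pair of arrays has a replicate check.

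A level is the log2 intensity of a probe minus the 75th percentile of its array, and a log2 ratio is the difference of a probe's levels on 2 arrays. Each gene was read at its brightest probe, the one with the highest mean level over the 4 arrays, and it counted as changed in a pair at 1.5-fold or more if it was well above background on 1 array of the pair or on both. The number of probes well above background was 31370 on the WT array and 30226 on the DYRK2-KO array at E8.5, then 31818 and 31943 at E10.5. Each probe of a member has 1 spot, so its own spread is unknown. Probes with at least 5 spots had a median SD between spots of 0.094 (log2) on the WT and 0.118 on the DYRK2-KO array of E8.5, with 0.073 and 0.083 for E10.5, and this covers 1 array and not the difference between embryos. All 10 members were well above background on all 4 arrays at their brightest probe. Of the 22 probes, 15 were so on every array, 3 on some and 4 on none.

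The labels of genotype were not checked by the targeted gene. The brightest *Dyrk2* probe had a level of 0.06 in WT and 0.76 in DYRK2-KO at E8.5, then −0.31 and 0.34 at E10.5. On the arrays labelled DYRK2-KO its signal was thus 1.62-fold higher at E8.5 and 1.57-fold higher at E10.5, with log2 ratios of 0.70 and 0.65, which were 0.15 and 0.81 with spike-in scaling and 0.44 and 0.52 without scaling. At the other *Dyrk2* probe the log2 ratio was 0.03 at E8.5, which became −0.52 with spike-in scaling and −0.23 without scaling, and 0.28 at E10.5. Neither probe is known to lie in a deleted part, so every direction between genotypes rests on the labels. The paper reports *Foxa2*, *Notch1*, *Nkx2.1*, *Cdx2* and Brachyury (*T*), among other genes, as decreased in its knockout embryos, with quantitative PCR beside the arrays. Its array values come from these same arrays, so the values that follow are no separate check of the labels. On the arrays labelled DYRK2-KO, *Foxa2* was 2.08-fold and *Notch1* 1.71-fold lower at E8.5. *T* was 2.81-fold, *Nkx2-1* 2.28-fold and *Cdx2* 1.64-fold lower at E10.5, where *Notch1* had levels of −1.71 in WT and −1.29 in DYRK2-KO. An exchange of labels was not tested. The heart could be checked at its muscle genes, of which 26 of 27 were well above background on both E8.5 arrays, all but *Pln*, and 27 of 27 on both E10.5 arrays.

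Between genotypes the members differed little at either stage. At E8.5, 1 of 10 members, *Gata5*, was higher on the array labelled DYRK2-KO by 1.5-fold or more, against 5.14% of 20687 genes, and 0 of 10 were lower, against 6.5% of those genes. The median log2 ratio of the members was 0.00, and that of all genes was −0.02. At E10.5, 0 of 10 members were higher, against 3.51% of 21188 genes, and 0 of 10 were lower, against 4.22%. The median was 0.04 for the members and 0.00 for all genes. These shares are near the background and are no result about the members.

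Between stages most members were lower at E10.5. In WT, 6 of 10 members were lower at E10.5 than at E8.5 by 1.5-fold or more, against 17.5% of 21619 genes, and 0 of 10 were higher, against 18.8%. Their median log2 ratio was −1.13, and that of all genes was −0.08. On the arrays labelled DYRK2-KO, 6 of 10 were lower, against 13.9% of 21244 genes, and 0 of 10 were higher, against 17.6%, with a median of −0.81 for the members and −0.05 for all genes. Of these, 5 members (*Nkx2-5*, *Gata4*, *Hand1*, *Tbx1* and *Tbx20*) were lower in both genotypes, *Gata6* in WT and *Mef2c* in DYRK2-KO. Whether the genotypes differ in this was not tested. In RNA of whole embryos, fewer cells of a type in the embryo and less RNA of a gene per cell cannot be told apart.

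The scaling between arrays sets these directions in part. Scaling by the spike-in control probes in place of the 75th percentile shifted the median log2 ratio of all genes between genotypes by −0.55 at E8.5 but 0.16 at E10.5, and no scaling shifted it by −0.26 and −0.13. Between stages the shifts were −0.07 in WT and 0.64 in DYRK2-KO with spike-ins, and 0.18 and 0.31 without scaling. Of all genes changed at E8.5, 44.2% were higher on the DYRK2-KO array, which became 2.85% with spike-ins and 13.8% without scaling. At E10.5 the share was 45.4%, and it was 69.2% with spike-ins, 28.9% without scaling and 55.9% after normexp background correction. Between stages 51.8% of the changed genes were higher at E10.5 in WT (66.9% without scaling, 45.3% with spike-ins and 47.6% after normexp) and 55.8% in DYRK2-KO (91.6% with spike-ins and 79.5% without scaling). With spike-in scaling 4 members were lower in DYRK2-KO at E8.5 by 1.5-fold or more (*Nkx2-5*, *Gata4*, *Gata6* and *Tbx20*), without scaling 3 (*Nkx2-5*, *Gata6* and *Tbx20*), and in both cases *Gata5* no longer passed 1.5-fold. Of the 20687 genes, 9837 were lower under spike-in scaling and 3174 without scaling. Between stages in DYRK2-KO, spike-in scaling gave 1 member higher at E10.5 (*Smyd1*) and 3 lower (*Nkx2-5*, *Hand1* and *Tbx1*), against 10631 genes higher and 980 lower of 21244.

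The fit over both stages gave the only tests that the design allows. With limma, 0 of 10 members were called for genotype, against 0.0186% of 32289 probes (6 probes). At an unadjusted p under 0.05 there was 1 member, *Gata5*, higher at both stages (limma log2 estimate 0.39, adjusted p = 0.976). Over all probes, 1592 were under an unadjusted p of 0.05. Without scaling, 2 members were under it in place of *Gata5*, namely *Nkx2-5* and *Tbx20* (limma log2 estimates −0.42 and −0.47), against 4551 probes. With spike-in scaling, after normexp and without the intensity trend, 0 members were under it. The probes called for genotype numbered 729 without scaling, 37 with spike-in scaling and 0 without the intensity trend. For stage, limma called 7 of 10 members, all lower at E10.5 in both genotypes, against 35.3% of the 32289 probes, which were called in either direction. The 7 are *Nkx2-5*, *Gata4*, *Gata6*, *Hand1*, *Mef2c*, *Tbx1* and *Tbx20*, and the other members are *Gata5*, *Hand2* and *Smyd1*. Without the intensity trend, limma no longer called *Gata6* and *Mef2c* for stage, with 6437 of the 32289 probes called. With spike-in scaling limma called 1 member for stage, *Nkx2-5*, against 2633 of the 32289 probes, and 2 members at an unadjusted p under 0.05, *Nkx2-5* and *Hand1*. The fit has 1 residual degree of freedom. Its residual is how far the gap between genotypes changed from E8.5 to E10.5, not the spread between embryos of a group. The p values of this fit are therefore not those of replicated groups. With eBayes, which borrows across probes, total degrees of freedom were 9.07 here and 3.98 without the intensity trend. They were 244 without scaling and 32300 with spike-in scaling. Counts of calls under these settings thus rest on different degrees of freedom.

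**Figure D1:**
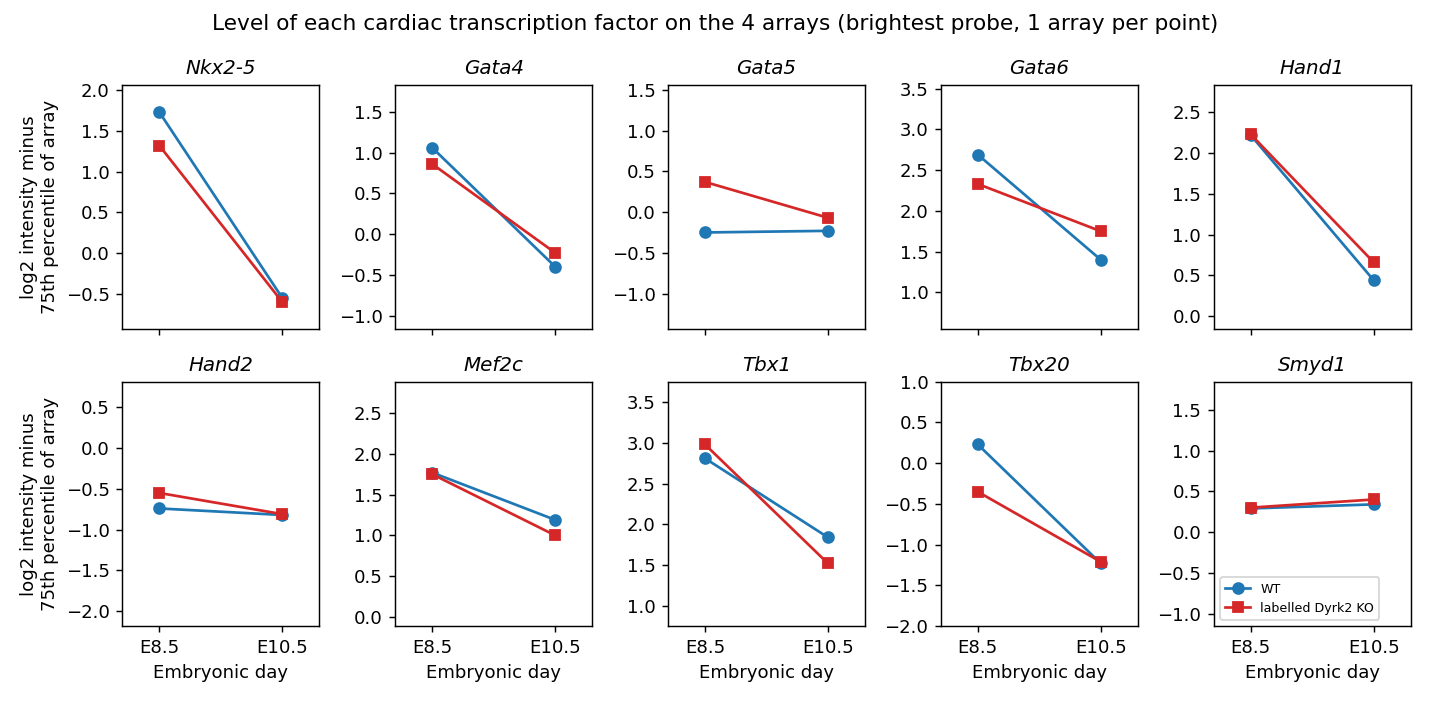
Level of each member (log2 intensity minus the 75th percentile of the array, y axis, each panel with its own range of equal height) against embryonic day (x axis), with 1 point per array and lines that join the arrays of 1 genotype. *Nkx2-5*, *Gata4*, *Hand1* and *Tbx20* slope down in both genotypes, with *Nkx2-5* going from 1.73 to −0.55 in WT, and *Hand2* and *Smyd1* are nearly level.

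*Nkx2-5* encodes the homeobox factor that marks heart progenitors from the time they are set aside. Its level was 1.73 on the WT and 1.32 on the DYRK2-KO array at E8.5, then −0.55 and −0.60 at E10.5, at its only probe (mm9 chr17:26975621-26975680). Both E8.5 arrays lay above both E10.5 arrays. Between stages the signal was 4.83-fold lower in WT and 3.79-fold lower in DYRK2-KO, with a limma log2 estimate of −2.10 for stage (adjusted p = 1.14e-05, lower in both genotypes). This was the largest stage ratio of the 10 members in either genotype, and it was smallest, at −1.28, in DYRK2-KO with spike-in scaling. Between genotypes the log2 ratio was −0.41 at E8.5 (1.32-fold lower in DYRK2-KO, under the threshold), −0.95 with spike-in scaling and −0.66 without scaling, and it was −0.05 at E10.5, where spike-in scaling turned the sign to 0.11.

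The GATA zinc finger factors *Gata4*, *Gata5* and *Gata6* act in heart mesoderm and in endoderm. The level of *Gata4*, needed for the fusion of the heart tube, was 1.06 on the WT and 0.86 on the DYRK2-KO array at E8.5, then −0.40 and −0.23 at E10.5. It was 2.76-fold lower at E10.5 in WT and 2.12-fold lower in DYRK2-KO (limma log2 estimate −1.27, adjusted p = 0.000233, lower in both genotypes). In DYRK2-KO its log2 ratio of −1.08 was −0.44 with spike-in scaling, under the threshold. Both E8.5 arrays were above both E10.5 arrays. Between genotypes its log2 ratio was −0.21 at E8.5 against 0.17 at E10.5, and −0.76 at E8.5 with spike-in scaling. A dim second probe of *Gata4* (mm9 chr14:63860003-63860062) was well above background on the DYRK2-KO array at E8.5 alone, with at least 1.32-fold higher signal than in WT. The mean over both probes gave a log2 ratio of 0.34 at E8.5, which takes in a WT value not well above background and so sets no direction.

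*Gata6* had a level of 2.69 in WT and 2.33 in DYRK2-KO at E8.5, then 1.40 and 1.75 at E10.5. The E8.5 arrays were again the higher ones, and the order of the genotypes turned between the stages. Its signal was 2.44-fold lower at E10.5 in WT and 1.49-fold lower in DYRK2-KO, just under the threshold (limma log2 estimate −0.93, adjusted p = 0.00285, lower in both genotypes). With spike-in scaling the log2 ratio between stages in DYRK2-KO turned from −0.58 to 0.06. Between genotypes the log2 ratio was −0.36 at E8.5 against 0.35 at E10.5, and these signs were the same under every scaling tried. A second probe, made for a cDNA of neonatal lung, gave −0.23 and 0.29 between genotypes, and −0.92 in WT and −0.40 in DYRK2-KO between stages.

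*Gata5*, which is active in the early heart and its inner lining, the endocardium, had another pattern. Its level was −0.25 on the WT and 0.37 on the DYRK2-KO array at E8.5, then −0.23 and −0.07 at E10.5. The DYRK2-KO array at E8.5 stood above the 3 other arrays. The signal was 1.54-fold higher there than in WT (log2 ratio 0.62), and this was 0.08 with spike-in scaling, 0.37 without scaling and 0.47 after normexp, all under 1.5-fold. At E10.5 the log2 ratio between genotypes was 0.17. Between stages it was 0.02 in WT, which turned to −0.06 with spike-in scaling and −0.01 with quantile normalization, and −0.44 in DYRK2-KO, which turned to 0.20 with spike-in scaling (limma adjusted p = 0.323 for stage). A second *Gata5* probe, for a cDNA with a retained intron, was well above background on no array.

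The bHLH factors *Hand1* and *Hand2* act mainly in the left and the right ventricle of the forming heart, and *Hand1* also in extraembryonic mesoderm. *Hand1* had a level of 2.22 in WT and 2.23 in DYRK2-KO at E8.5, then 0.44 and 0.66 at E10.5. The genotypes were close at each stage, and the stages were well apart. The signal was 3.44-fold lower at E10.5 in WT and 2.98-fold lower in DYRK2-KO (limma log2 estimate −1.68, adjusted p = 2.26e-05, lower in both genotypes). Between genotypes the log2 ratio was 0.01 at E8.5, which turned to −0.54 with spike-in scaling and −0.25 without scaling, and 0.22 at E10.5. A second *Hand1* probe, for an Ensembl transcript, was well above background on no array.

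*Hand2* moved little. Its level was −0.74 on the WT and −0.55 on the DYRK2-KO array at E8.5, then −0.82 and −0.81 at E10.5. The log2 ratio between stages was −0.08 in WT, which turned to 0.10 without scaling, and −0.26 in DYRK2-KO, which turned to 0.38 with spike-in scaling and 0.04 without scaling (limma adjusted p = 0.404 for stage). Between genotypes it was 0.19 at E8.5, which turned to −0.36 with spike-in scaling and −0.07 without scaling, and 0.01 at E10.5, which turned to −0.12 without scaling.

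*Mef2c*, a MADS box factor of heart, skeletal muscle and vessel progenitors that is needed for the looping heart tube, had a level of 1.77 in WT and 1.75 in DYRK2-KO at E8.5, then 1.19 and 1.0 at E10.5. The difference between stages was smaller than for *Nkx2-5* and *Hand1* in both genotypes. In WT its log2 ratio of −0.58 lay just short of the threshold, and it was 1.69-fold lower in DYRK2-KO (limma log2 estimate −0.67, adjusted p = 0.00384, lower in both genotypes). In DYRK2-KO the log2 ratio of −0.76 was −0.12 with spike-in scaling and −0.45 without scaling. Between genotypes the log2 ratios were −0.02 at E8.5 and −0.19 at E10.5, with −0.57 at E8.5 under spike-in scaling. Of its 3 other probes, the one for transcript variant 2 gave −0.60 in WT and −0.77 in DYRK2-KO between stages, one for an Ensembl transcript gave −0.45 and −0.33, and the last was well above background on no array.

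The T-box factor *Tbx1* acts in the second heart field and the pharyngeal arches that supply the outflow tract. Its level was 2.81 on the WT and 2.98 on the DYRK2-KO array at E8.5, then 1.84 and 1.52 at E10.5. The DYRK2-KO array was thus the highest of the 4 at E8.5 and the lowest at E10.5. Between stages *Tbx1* was 1.96-fold lower in WT and 2.75-fold lower in DYRK2-KO (limma log2 estimate −1.21, adjusted p = 0.000277, lower in both genotypes). Between genotypes the log2 ratio was 0.17 at E8.5, which turned to −0.38 with spike-in scaling and −0.09 without scaling, and −0.31 at E10.5.

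*Tbx20*, a T-box factor that chamber muscle needs to grow, was the member nearest the threshold on the lower side at E8.5. At its brightest probe (mm9 chr9:24527750-24527809) the level was 0.23 on the WT and −0.35 on the DYRK2-KO array at E8.5, then −1.23 and −1.21 at E10.5. The WT array at E8.5 stood above the 3 others, and the E10.5 arrays were nearly equal. The log2 ratio at E8.5 was −0.58, just short of the threshold (−1.13 with spike-in scaling and −0.84 without scaling), and the log2 ratio was 0.02 at E10.5, which turned to −0.11 without scaling. Between stages it was 2.76-fold lower in WT and 1.82-fold lower in DYRK2-KO (limma log2 estimate −1.16, adjusted p = 0.00108, lower in both genotypes), and in DYRK2-KO the log2 ratio of −0.86 was −0.22 with spike-in scaling and −0.56 without scaling.

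The *Tbx20* probes gave the same direction at E8.5 and differed in size. The probe for transcript variant 2 went from −1.71 in WT to −2.45 in DYRK2-KO, which is 1.67-fold lower. The other probe for variant 1 went from −1.45 to −1.94, 1.41-fold lower, and the probe for variant 3 went from −2.66 to −3.0, 1.27-fold lower. Thus 4 of 5 probes were lower in DYRK2-KO at E8.5, and the fifth was well above background on no array. At E10.5 the variant 2 probe had −3.86 and −3.92 and the other variant 1 probe −3.10 and −2.87, WT first. The variant 3 probe was dim at E10.5 (on neither array well above background), so that its signal was at least 4.16-fold lower there in WT and at least 3.40-fold lower in DYRK2-KO.

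**Figure D2:**
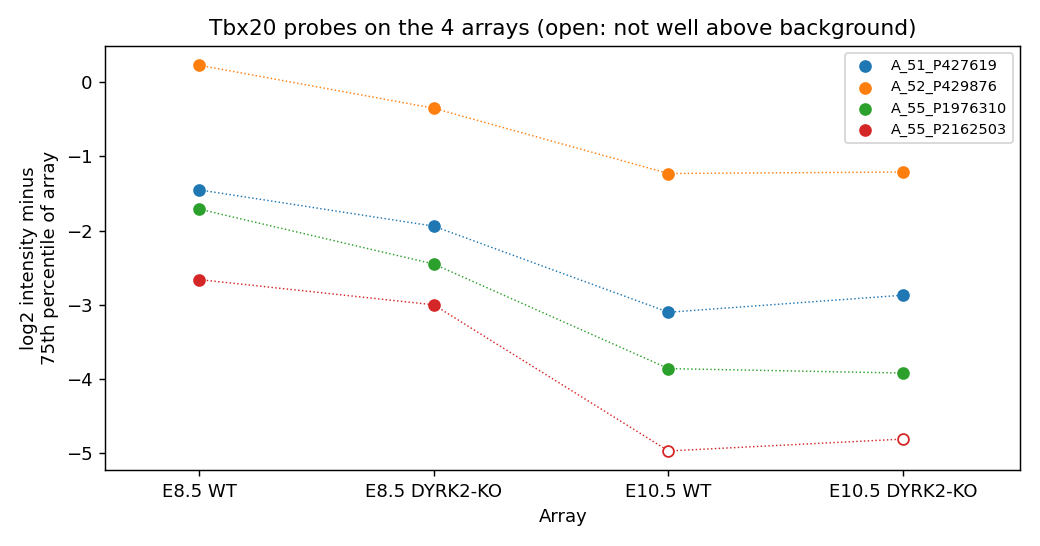
Level of 4 *Tbx20* probes (log2 intensity minus the 75th percentile of the array, y axis) on each array (x axis), with 1 point per array, open where the probe was not well above background, and dotted lines that only guide the eye from array to array. Each of the 4 probes is lower on the E8.5 array labelled DYRK2-KO than on the E8.5 WT array and lower again on both E10.5 arrays, and levels of different probes are not to be compared.

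*Smyd1* encodes a histone methyltransferase of heart and skeletal muscle and is the member that is not a DNA-binding factor. Its level was 0.29 on the WT and 0.30 on the DYRK2-KO array at E8.5, then 0.34 and 0.40 at E10.5. The 4 arrays lay closer together than for any other member. The log2 ratios were 0.01 at E8.5, which turned to −0.53 with spike-in scaling and −0.24 without scaling, and 0.05 at E10.5, which turned to −0.08 without scaling. Between stages they were 0.06 in WT, which turned to −0.01 with spike-in scaling, and 0.10 in DYRK2-KO, which was 0.74 with spike-in scaling (limma adjusted p = 0.684 for stage). The mean over both *Smyd1* probes was −0.29 in WT and −0.72 in DYRK2-KO between stages, and −0.03 at E8.5 and −0.46 at E10.5 between genotypes. All but the E8.5 value take in a dim second probe not well above background on either E10.5 array, so they set no direction. This second probe did not follow the brightest: it was well above background at E8.5 alone. It was at least 1.55-fold lower at E10.5 in WT and at least 1.61-fold lower in DYRK2-KO.

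**Figure D3:**
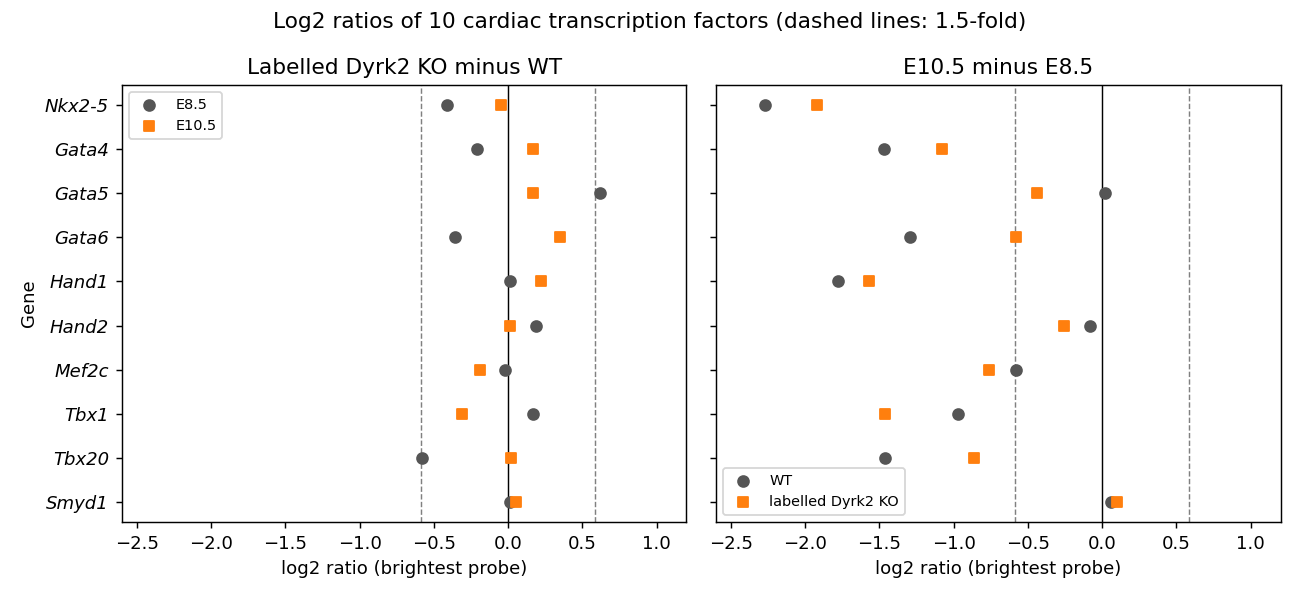
Log2 ratio of each member at its brightest probe (x axis) by gene (y axis), between genotypes at each stage (left) and between stages in each genotype (right), each point from 2 arrays, with dashed lines at 1.5-fold. On the left only *Gata5* at E8.5, at 0.62 here and 0.08 with spike-in scaling, passes a dashed line, and on the right *Nkx2-5* lies farthest to the left in both genotypes, at −2.27 and −1.92.

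Relatives of the members within each family did not all move with them. Of the 6 GATA genes, 2 were higher in DYRK2-KO at E8.5, *Gata5* and *Gata1*, the master factor of red blood cells, which was 19.3-fold higher (level −4.01 in WT and 0.26 in DYRK2-KO) and was the 1 GATA gene higher at E10.5 (2.35-fold). Of the 2 Hand genes, 0 changed between genotypes at either stage and 1, *Hand1*, was lower at E10.5 in WT. Of the 4 Mef2 genes, 1 was lower at E8.5, *Mef2b*, which was well above background on the WT array alone, and 0 changed at E10.5 or between stages in WT. Of the T-box genes, 1 of 13 was higher (*Tbx10*, 1.75-fold) and 1 lower (*Tbx22*, 2.57-fold) at E8.5, and 4 of 15 were lower at E10.5, *Tbx6* (3.16-fold), *T* (2.81-fold), *Tbr1* and *Eomes*. Between stages in WT 6 of 15 T-box genes were higher, among them *Tbx2* (5.58-fold), and 5 lower, *Tbx1* and *Tbx20* included. Of the Nkx2 genes, 1 of 6 was lower at E8.5 and 2 of 7 were lower at E10.5, *Nkx2-1* (2.28-fold) and *Nkx2-2* (1.98-fold), and between stages in WT 5 of 7 were lower, *Nkx2-5* with *Nkx2-6* (5.46-fold) among them, and 2 higher, *Nkx2-2* (2.97-fold) among them. Of the 5 Smyd genes, 0 changed between genotypes and 1, *Smyd5*, was lower at E10.5 in WT (2.06-fold). The E8.5 counts between genotypes turned with spike-in scaling, to 1 GATA gene higher and 4 lower, 0 T-box genes higher and 4 lower, 2 Mef2, 5 Nkx2 and 3 Smyd genes lower, and 0 Hand genes changed.

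Other transcription factors and cofactors of the heart were likewise mostly under the threshold between genotypes. At E8.5, 0 of 32 were higher and 3 lower in DYRK2-KO, namely *Mef2b*, *Mesp1* (2.54-fold) and *Mesp2* (2.83-fold). *Mesp1* and *Mesp2* are factors of early mesoderm and somites, and *Mesp2* was near the floor on the DYRK2-KO array (level −4.33). The median log2 ratio was 0.07, which was −0.48 with spike-in scaling, where 11 were lower. After normexp 1 was lower. At E10.5, 0 of 30 changed. Between stages in WT, 6 of 32 were higher at E10.5, among them *Heyl* (37.0-fold), *Wt1* (8.03-fold), a factor of the epicardium, *Tbx2* and *Tbx18* (3.13-fold), and 8 were lower, among them *Myocd* (5.93-fold), the coactivator of serum response factor, *Nkx2-6*, *Hopx* (3.14-fold) and *Foxc2* (1.88-fold). The median was −0.09 in WT, and in DYRK2-KO 5 of 32 were higher and 10 lower, which turned to 18 higher and 5 lower with spike-in scaling and to 7 higher and 6 lower without scaling. Whether these factors differ from the members in this was not tested.

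Of the signals that induce the heart and their receptors, 1 of 24 was higher in DYRK2-KO at E8.5, *Cer1* (2.34-fold). Lower were 4, *Tdgf1* (2.52-fold) and *Cfc1* (2.40-fold), which are coreceptors of NODAL, *Notch1* (1.71-fold) and *Dkk1* (1.54-fold), with a median of −0.19. With spike-in scaling 18 were lower, and after normexp 2. At E10.5, 0 of 24 changed. Between stages in WT 1 was higher, *Dll4* (1.86-fold), and 14 lower, led by *Cfc1* (13.0-fold), *Bmp2* (5.84-fold), *Fgf8* (3.62-fold) and *Bmp5* (2.95-fold), with a median of −0.74. Of the cardiac muscle genes, 4 of 26 were higher in DYRK2-KO at E8.5, *Myl2* (1.75-fold), *Nppb*, *Gja5* and *Tnni3*, and 0 lower. This became 0 higher and 11 lower with spike-in scaling, and 2 higher and 0 lower after normexp. At E10.5, 0 of 27 changed. Between stages in WT 5 were higher, *Nppa* (14.1-fold) among them, and 13 lower, *Ankrd1* (4.81-fold) among them, so both directions were found where the members showed 1.

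Markers of other tissues moved along with the comparisons. Summed levels of a list are linear signals relative to the 75th percentile of an array and are given in the order WT and DYRK2-KO at E8.5, then WT and DYRK2-KO at E10.5. At E8.5, 11 of 11 erythrocyte genes were higher in DYRK2-KO, with a median log2 ratio of 4.84 (2.98 after normexp). Their summed levels were 17.4, 384, 1380 and 1600. The largest part of the sum came from the probe of *Hbb-bh1* at E8.5 and that of *Hbb-y* at E10.5, which does not rank the transcripts, and *Klf1* was not well above background on the WT array at E8.5. At E10.5, 7 of 11 were higher. Of the yolk sac endoderm genes, where *Gata4* and *Gata6* are active, 9 of 14 were lower in DYRK2-KO at E8.5, against 6.5% of 20687 genes. This was 14 with spike-in scaling, 13 without scaling and 7 after normexp. At E10.5, 0 of 13 were lower in DYRK2-KO, and 4 without scaling. The summed levels were 81.5, 50.8, 30.3 and 24.9, the probe of *Rbp4* giving the largest part at E8.5 and that of *Afp* at E10.5. Between stages in WT, 11 of 14 of these genes were lower at E10.5, *Apoa4* no longer well above background. Their part in the members' ratios was not tested.

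Counts for other marker lists between genotypes at E8.5 also depended on the scaling. Of 10 endothelial genes, 2 were higher in DYRK2-KO at E8.5 (*Eng*, 1.56-fold, and *Emcn*, 1.53-fold), 0 with spike-in scaling and 0 after normexp. At E10.5, 0 changed. Their summed levels were 19.8, 23.9, 23.6 and 22.8, with the largest part from the probe of *Kdr* on each array. Of 9 gut endoderm genes, 1 was lower at E8.5 (*Foxa2*, 2.08-fold), 6 with spike-in scaling, 2 of 8 at E10.5, and 8 of 9 were lower at E10.5 in WT, with summed levels of 37.1, 27.3, 8.33 and 7.05 and the largest part from the probe of *Cdx2* at E8.5. Of the pharyngeal arch and neural crest genes, 2 of 12 were higher at E8.5 (*Dlx2* and *Sox10*) and 0 lower, which turned to 0 higher and 4 lower with spike-in scaling, and in WT 5 of 13 were higher at E10.5 and 2 lower, while *Tbx1*, a gene of the arches, was lower (summed levels of 61.1, 58.4, 61.3 and 59.6). Of the skeletal muscle genes, 0 of 4 changed at E8.5, 2 of 9 were lower in DYRK2-KO at E10.5 (*Myod1* and *Myf6*; *Myf5* was dim on all arrays), and in WT 6 of 9 were higher at E10.5 and 1 lower (*Acta1*, 1.67-fold), where *Smyd1* was level. Of 10 trophoblast and decidua genes, 6 could be compared at E8.5, of which 2 were higher and 1 lower. *Tpbpa*, *Syna*, *Synb* and *Prl3c1* were well above background on no array. The part of these tissues in the members' ratios was not tested either.

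The genes nearest in pattern to 9 of the 10 members were found by the Euclidean distance between mean-centred levels over the 4 arrays, among 18668 genes. For *Nkx2-5* they were *Rbm20* (distance 0.0397), a splicing factor of heart muscle, and *Dnmt3b* (0.15). For *Gata4* they were *Ap1m2* (0.0352) and *Pdlim5* (0.0382), and for *Gata6* they were *Tmem140* (0.0963) and *Yars2* (0.0995). *Mef2c* had *Gm2568* (0.0364) and *Pgm3* (0.0462), *Tbx20* had a probe without a gene name (0.0582) and *Cd44* (0.0782), and *Tbx1* had an unnamed transcript (0.0443) and *Pou3f1* (0.0643). *Hand2* (*Dnajc30*, 0.0105, and *Espl1*, 0.0142) and *Smyd1* (*Tbc1d23*, 0.0131, and *Tmem120b*, 0.0197) were level over the arrays, as most genes are, and *Gata5* had 2 unnamed transcripts (0.0348 and 0.0386). With 4 arrays such distances are descriptions.

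The bases before the transcript start were read for the members that have them in the reference. RefSeq (GRCm38.p6) gave 10 windows of 250 bases upstream of the start for 7 of 10 members, *Gata5*, *Hand2*, *Mef2c*, *Nkx2-5*, *Smyd1*, *Tbx1* and *Tbx20*. They were searched on both strands for a GATA box (GATAA or TTATC, in 22.6% of 32851 such windows), an NK2 box (AAGTG or CACTT, in 40.7%), an E box (CANNTG, in 66.2%, which can overlap the NK2 box) and a CArG box (in 1.47%). *Nkx2-5* and *Tbx20*, both lower at E10.5, held neither a GATA box nor an NK2 box, and *Hand2*, which moved little, held 2 GATA boxes and 1 NK2 box. *Mef2c*, lower as well, held 1 NK2 box in each of its 3 windows and 2 GATA boxes in 1 of them. *Tbx1*, lower, and *Gata5*, not called for stage, held neither box, and *Smyd1*, level, held 1 NK2 box. Their 250 bases are shown 5′ to 3′ to set these genes side by side, with the GATA and NK2 boxes in capitals, at chr17:26841566-26841815 (minus strand), chr9:24774304-24774553 (minus strand) and chr8:57320733-57320982 (plus strand).
Nkx2-5: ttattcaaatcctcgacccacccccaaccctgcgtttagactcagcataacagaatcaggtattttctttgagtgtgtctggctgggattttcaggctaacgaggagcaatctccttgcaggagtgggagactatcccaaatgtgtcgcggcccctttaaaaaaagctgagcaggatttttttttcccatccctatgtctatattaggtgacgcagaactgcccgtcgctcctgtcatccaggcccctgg
Tbx20: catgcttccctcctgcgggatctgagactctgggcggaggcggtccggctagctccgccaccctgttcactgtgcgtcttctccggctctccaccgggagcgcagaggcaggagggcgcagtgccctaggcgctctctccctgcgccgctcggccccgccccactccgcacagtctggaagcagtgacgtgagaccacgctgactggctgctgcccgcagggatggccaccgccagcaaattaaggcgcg
Hand2: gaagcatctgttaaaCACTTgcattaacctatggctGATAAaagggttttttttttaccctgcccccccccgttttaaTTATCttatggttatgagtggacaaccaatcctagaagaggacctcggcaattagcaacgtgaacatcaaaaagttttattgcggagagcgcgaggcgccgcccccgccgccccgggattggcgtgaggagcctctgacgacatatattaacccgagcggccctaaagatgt
E boxes numbered 1 for *Nkx2-5*, 1 for *Gata5* and 2 for *Hand2*. In order of position, the *Mef2c* windows held 2, 0 and 1 and the *Tbx1* windows 0 and 1. *Tbx20* and *Smyd1* held 0. A CArG box was in none of the 10 windows. A match is a description of letters and not of a bound site.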

How the data were processed

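RNA of whole embryos was read on 4 Agilent mouse arrays of 1 colour, 1 for each of 4 groups. Scanner output for every array comes from the authors, and its processed intensity is, per the file headers, detrended in space and multiplicatively, with no scaling between arrays, by Feature Extraction 10.7.1.1 (the labels name 9.5.1.1). The deposited table is one of linear, uncentred intensity whose 4 columns share one distribution (median 4.79 log2 in each, sorted columns within 0.000523 log2), by a method not stated.

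Spots that the software marks as outliers were dropped, each probe took the mean log2 processed intensity of its other spots, and levels were set relative to the 75th percentile of the array. Of 62976 spots, 59305 were not controls, and 0 were saturated. They gave 56605 probes, of which 1 without a value was left out. A probe counted as well above background if the software says so for no fewer of its spots than it does not. Where 1 array of a pair was not, the fold was taken against the higher of its value and the floor of that array, the lowest level among its probes well above background (−4.82 and −4.53 at E8.5, −4.72 and −4.77 at E10.5, WT first) and is given as "at least". Genes were named by RefSeq accession (GRCm38.p6) for 32988 probes, otherwise by symbol, synonym or the name in the file. Probe positions are those of mm9.

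Genotype and stage were tested with limma 3.58.1 in R 4.3.3 (terms for both, eBayes with an intensity trend) over 32289 probes, those well above background on 2 or more of the arrays. P values were adjusted by Benjamini-Hochberg, with calls at 0.05. Python 3.11.15 with numpy 2.4.6, pandas 2.3.3 and matplotlib 3.10.9 did the rest. The steps were tested on simulated data.

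Alternatives were quantile normalization, scaling by 7 of 10 spike-in probes, no scaling, normexp with an offset of 50, the deposited table, other filters on dim probes, 2-fold, the mean over probes, and no trend. Named are all members, *Dyrk2*, sex-linked genes, and up to 4 genes per direction of each list past 1.5-fold, with the 2 genes nearest to a member. Members and lists, from textbook knowledge, were chosen with earlier results of these data known.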

Additional observations from a re-analysis of the deposited data

Results flagged for a closer look

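*Gata6* and *Tbx20* had log2 ratios between genotypes that differed between the stages. For *Gata6* the ratio was −0.36 at E8.5 against 0.35 at E10.5, a difference of 0.71, and with spike-in scaling the ratios were −0.91 and 0.51. For *Tbx20* it was −0.58 at E8.5 against 0.02 at E10.5, a difference of 0.60, and the E10.5 value turned to −0.11 without scaling. With spike-in scaling the *Tbx20* ratios were −1.13 and 0.18. Each ratio comes from 1 array per genotype, and the difference was not tested.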

How the results depend on the processing

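At E8.5 the count of members past 1.5-fold was 1. It was 4 with spike-in scaling, 3 without scaling, 0 after normexp and 0 at 2-fold, and 1 under the other alternatives. At E10.5 it was 0, and 1 with the mean over probes, since *Gata4* (log2 ratio 0.60) then takes in a probe not well above background on either E10.5 array. Between stages it was 6 in WT (5 at 2-fold, 7 with spike-in scaling) and 6 in DYRK2-KO, where it was 4 with spike-in scaling, without scaling and at 2-fold. It was 7 there with the mean over probes, since *Smyd1* (log2 ratio −0.72) then takes in a probe not well above background on either E10.5 array. Members called by limma for genotype numbered 0 under each alternative run with limma (2-fold and the mean over probes were not), and those for stage 7, with 1 under spike-in scaling and 5 without the intensity trend. Apart from 2-fold and the mean over probes, the cause was not tested. Of the members' log2 ratios between genotypes at E8.5, 5 crossed 1.5-fold or fell back under it with spike-in scaling and 4 without scaling.

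With 1 array per group, the number of arrays limits the precision, and embryo, array and group cannot be told apart. Probes not well above background give bounds only. The signal of 1 probe does not measure all transcripts of a gene, and whole-embryo RNA does not tell the heart from other tissues. No paired analysis was possible because each group has 1 array, with no replicate block to add to the fit with terms for stage and genotype.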

Other observations

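The sex-linked genes differed on 1 array. *Xist*, which is transcribed from the inactive X chromosome, was well above background on the DYRK2-KO array at E10.5 alone, at least 20.4-fold higher than in WT. *Eif2s3y* and *Kdm5d* of the Y chromosome passed background well at their brightest probes on each of the 3 other arrays and were at least 43.2-fold and 39.0-fold lower on that array, as were *Ddx3y* (at least 6.72-fold) and *Uty* (at least 6.71-fold). Against the DYRK2-KO array at E8.5, the same array had at least 17.9-fold higher *Xist* signal and at least 60.1-fold lower *Eif2s3y* signal. For the members, the sex of the embryos thus cannot be told apart from genotype at E10.5, nor from stage in DYRK2-KO.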
